A study of Zea mays with 24 samples.

Results

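The root cap and the epidermis are the tissues of the maize root tip that meet the soil, and their RNA was compared over 6 of the 24 libraries of the series, 3 from each tissue. The root cap libraries came from dissected root cap of wild-type B73, an inbred maize line. The epidermis libraries came from wild-type B73 root tip protoplasts, which are cells freed of their walls, stained over 15 min with the fluorescent dyes syto 81 and syto 40 and collected by sorting. All plants were 7 days after germination and grown at 26 °C in 12 h of light and 12 h of dark. The members were the libraries titled root cap and epidermis, and the deposited columns for root cap are headed collumela, a name for the central part of the cap.

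The other libraries served as references, with 3 in each group. Cortex and stele were dye-sorted from wild-type B73 in the same way as epidermis. Unsorted protoplasts and intact root tips, both wild-type B73, had the cap removed. Endodermis and quiescent center were sorted from ZmSCR::RFP and ZmWOX5::RFP reporter lines in a B73/Hi-II background.

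The root cap is a layered organ that shields the meristem, senses gravity through starch-filled columella cells, secretes mucilage and sheds border cells into the soil. The epidermis is the outermost layer of the root proper and, behind the tip, bears root hairs that take up water and mineral nutrients. In grasses these tissues arise from separate initials, and the flanks of the cap overlie the young epidermis.

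Tissue and handling were confounded, because root cap was neither digested nor sorted while epidermis was both. What the tissue and the handling each contributed cannot be told apart in the direct comparison. Cap removal is stated for the unsorted protoplasts and the intact tips and not for the sorted tissues, and cap cells among the sorted epidermal protoplasts were not tested for. The deposited identifiers are not paired with gene names, and none of the 39510 matched the reference table of 49888 genes. The tissue labels could therefore not be set against marker genes, and genes are given by identifier with no role.

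Recovered reads in the 6 libraries ranged from 23121418 to 32757805. The normalized values used here are read counts per gene scaled by one size factor for each library. A lone zero beside values of 30 to 100 in both remaining replicates was more frequent in root cap, at 10.6% of cases, than in epidermis, at 0.775%. Nothing in the labels ties replicates to separate plants, so the spread between replicates may be technical. The p-values measure this spread within groups, estimated for each gene over all 8 groups and 24 libraries.

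Root cap replicate 1 lay closer to epidermis than the other root cap libraries did. Across the 25555 genes tested, its Spearman correlation with the epidermis libraries was 0.863 to 0.867, against 0.788 to 0.813 for replicate 2 and 0.805 to 0.832 for replicate 3. These correlations are across genes, which are not independent replicates, and they also carry each library's depth and preparation. By mean correlation root cap was nearest to epidermis (0.83), then cortex (0.8) and stele (0.768), and farthest from intact tips without cap (0.685). The reverse did not hold, as epidermis was nearer to cortex (0.917), unsorted protoplasts (0.837) and stele (0.834) than to root cap. It was farther from intact tips without cap (0.814), endodermis (0.773) and quiescent center (0.721). Within groups the correlations were 0.903 to 0.93 for root cap and 0.946 to 0.975 for epidermis.

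Root cap and epidermis were called different in 3484 genes, of which 1894 were higher in root cap and 1590 were higher in epidermis. A gene was called when its limma adjusted p was below 0.05 and its log2 difference was at least 1 in size, on the log2(value + 1) scale. The calls in the root cap direction were 7.41% of the genes tested and those in the epidermis direction 6.22%. On simulated data this fit called more unchanged genes than its threshold implies, so some calls may be false. The alternative fit with edgeR gave 2842 calls. In bulk RNA of this kind, fewer cells of a type and less RNA per cell cannot be told apart. Without root cap replicate 1 there were 3873 calls, 1901 higher in root cap and 1972 higher in epidermis.

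**Figure D1:**
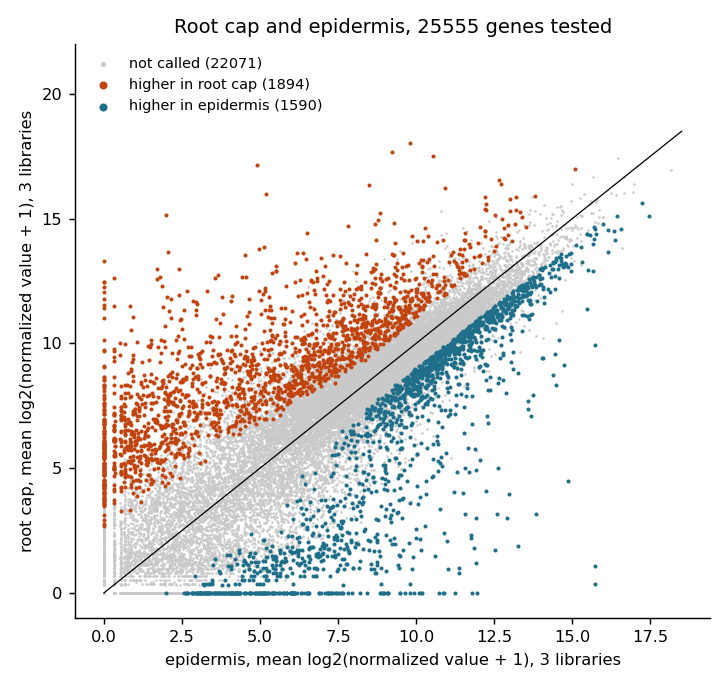
Mean log2(normalized value + 1) over 3 libraries in epidermis (horizontal axis) and root cap (vertical axis) for the 25555 genes tested, with called genes in colour and the line of equal level in black. The 1894 genes higher in root cap reach down to 0 in epidermis, and many of the 1590 genes higher in epidermis lie close to the line at high levels.

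Sizes differed between the directions. The median log2 difference was 3.71 among the genes higher in root cap and 2.27 in size among those higher in epidermis. These medians were closer in size for genes called without root cap replicate 1, at 3.79 and −2.99 in the other root cap libraries. Of the genes higher in epidermis, 720 (45.3%) differed by less than 2 log2 units, against 340 (18.0%) of those higher in root cap. Differences of 6 log2 units or more were found for 309 genes higher in root cap and 169 higher in epidermis.

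The called genes included some with values well above 0 in both tissues and some at 0 in one. Values of at least 100 in all 6 libraries were found for 827 (52.0%) of the genes higher in epidermis and 579 (30.6%) of those higher in root cap. Conversely, 154 genes higher in root cap were at 0 in all epidermis libraries, and 29 of these were at 100 or more in every root cap library. In the other direction, 189 genes were at 0 in all root cap libraries, and 32 of these were at 100 or more in every epidermis library. For these counts at 100 or more and at 0, no share over all genes tested was computed. All root cap libraries lay above all epidermis libraries for 1865 of the 1894 genes, and the reverse held for 1548 of the 1590 genes. The same values chose these genes, so this separation is largely built in and is a description only. Among all genes tested, called or not, root cap lay wholly above epidermis in 20.1% and wholly below in 18.7%, together 38.8%.

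Calls made without a library held in that library for most genes. The libraries of the other tissue helped choose these genes and were used again here, so agreement is in part built in. No share over all genes tested was computed for it. Without root cap replicate 1, 1901 genes were called higher in root cap and 1860 of them were also higher in replicate 1 than the epidermis mean. Their median log2 difference was 2.83 in that library and 3.79 in the other root cap libraries. Of the 1972 genes called higher in epidermis without it, 1748 (88.6%) kept the direction in replicate 1, with a median difference of −1.26 there and −2.99 in the others. The differences were thus smaller in root cap replicate 1 in both directions. For the other 5 libraries left out in turn, 93.0% to 100% of the genes called without a library kept their direction in it.

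Zm00001d037032 had the largest difference in favour of root cap among the genes that met the naming rule. Its normalized values were 3875, 18326 and 14649 in root cap and 0 in all 3 epidermis libraries. Averaged on the log scale, root cap stood 3439-fold above an epidermis floor of 3 reads in each library, which covers counting error only. That figure is not a minimum, because it leaves out the spread among the root cap libraries, whose lowest value was 3875. The gene was also listed at 0 in every cortex, unsorted protoplast and intact tip library. Its highest value outside root cap was 74.5, in quiescent center replicate 2.

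Zm00001d038740 stood at 15275, 61903 and 50960 in root cap and at 11.0, 4.04 and 0 in epidermis. The groups did not overlap, and the lowest value for both genes among the root cap libraries was in replicate 1. The log2 difference was 13.18 (SE 1.04, limma adjusted p = 3.56e-08). No other library exceeded 18.3, the value in unsorted protoplast replicate 2.

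On the epidermis side the largest difference belonged to Zm00001d006933, at 82247, 75756 and 25433 in epidermis and at 1.02, 0 and 0 in root cap. It fell by 15.39 log2 units in root cap (SE 0.96, limma adjusted p = 1.02e-09). Its root cap values are all under the floor of 3 reads, so this size depends on the constant added before the log, and it ran from −17.18 to −12.36 over the alternatives. This gene was not particular to epidermis: its mean was 37985 ± 16337 in cortex (SD, n = 3), 6935 ± 246 in intact tips without cap and 3849 ± 4001 in stele. It was at 0 in all quiescent center libraries, as in most root cap libraries.

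Zm00001d007700 showed the same order, at 79254, 51754 and 38324 in epidermis and at 8.13, 0 and 0 in root cap. Its log2 difference fell by 14.66 (SE 0.72, limma adjusted p = 2.72e-11). Cortex was higher still by mean, at 76074 ± 17168 (SD, n = 3), with libraries that overlapped those of epidermis. Intact tips without cap held 19525 ± 4868 (SD, n = 3).

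**Figure D2:**
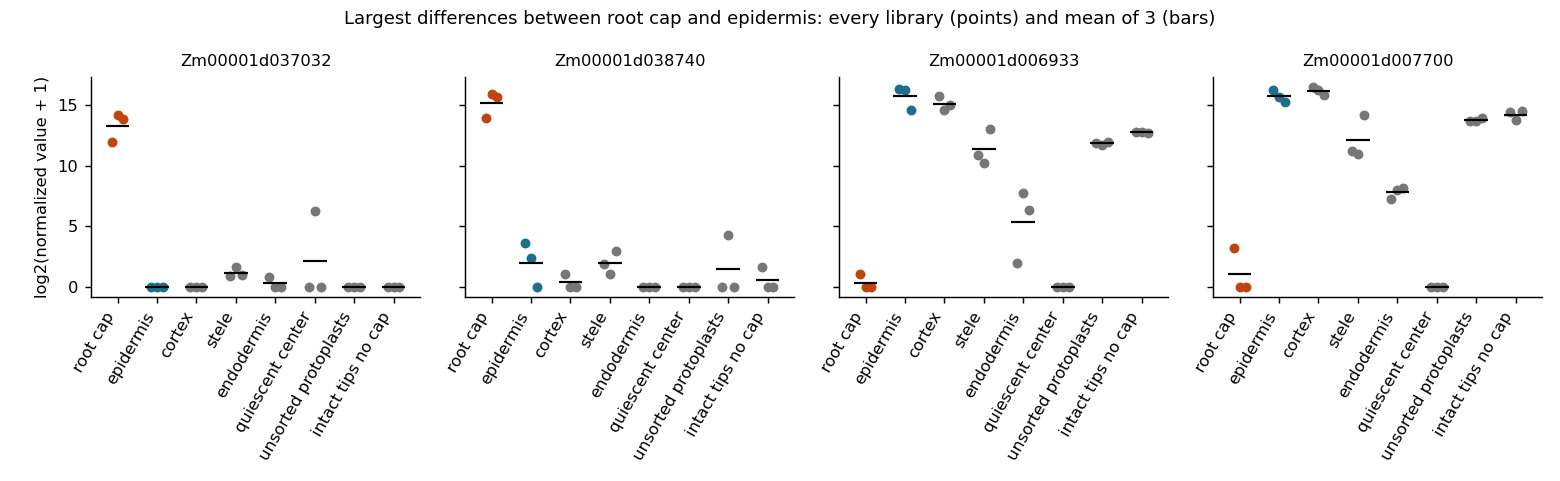
log2(normalized value + 1) of the genes with the largest differences between root cap and epidermis, with a point for each of 3 libraries in the 8 groups and a bar at their mean. Zm00001d037032 and Zm00001d038740 are high in root cap and at a normalized value of 74.5 or less in every library of the other groups, and Zm00001d006933 and Zm00001d007700 are low in root cap, at 0 in quiescent center, intermediate in endodermis and high in the remaining groups.

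The median level of the 1590 genes higher in epidermis was 9.91 to 10.09 on the log2(value + 1) scale in the epidermis libraries. It was as high in cortex (10.15 to 10.25) and intact tips without cap (9.95 to 10.09), and 9.42 to 9.78 in stele, endodermis and unsorted protoplasts. The low groups were root cap, at 7.41 to 8.06, and quiescent center, at 7.87 to 8.37. Over all genes tested the medians of the 24 libraries lay between 7.39 and 8.05.

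Root cap stood below all 6 other groups for 678 (42.6%) of the genes higher in epidermis, and epidermis stood above all 6 for 410 (25.8%). The same root cap and epidermis values chose these genes, so the places are a description only.

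The 1894 genes higher in root cap had a median level of 8.64 to 9.19 in the root cap libraries and 4.94 to 5.20 in the epidermis libraries. Intact tips without cap, which hold epidermis among other tissues, were nearly as low, at 5.02 to 5.83. The inner tissues and unsorted protoplasts lay between, with stele at 6.74 to 7.01 and quiescent center at 7.04 to 7.82. Root cap was above all 6 other groups for 1188 (62.7%) of these genes and epidermis below all 6 for 476 (25.1%), again as a description of values that chose them.

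**Figure D3:**
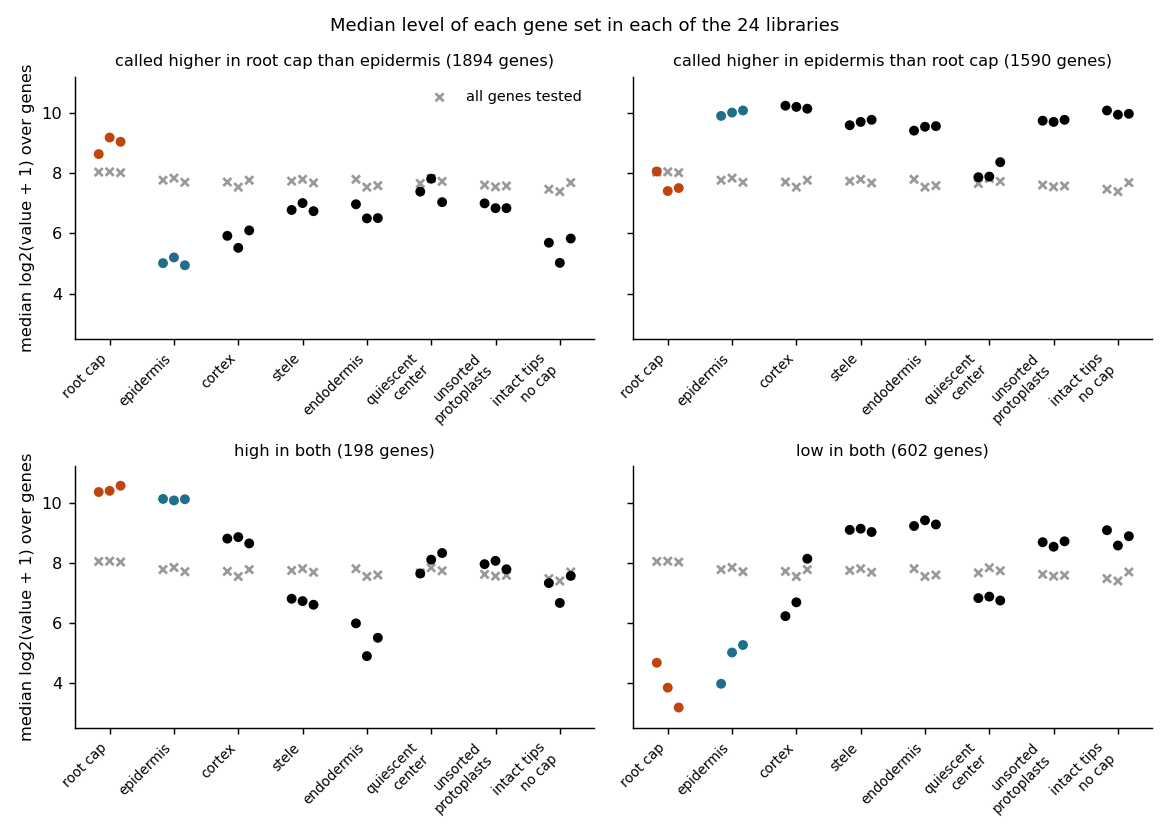
Median log2(value + 1) over the genes of each set in each of the 24 libraries (circles), with root cap and epidermis in colour, beside the median over all 25555 genes tested (grey crosses). The genes higher in epidermis are low in root cap and quiescent center and high in the other groups, and the genes low in both are high in stele and endodermis.

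Unsorted protoplasts and intact tips without cap differ in digestion and share no library with root cap or epidermis, though their mixes of cells may differ too. Among the genes higher in root cap, 461 (24.3%) were called higher in protoplasts, against 9.27% of all genes tested, and 94 (4.96%) were called higher in intact tips, against 8.58%. Among those higher in epidermis, 69 (4.34%) were called higher in protoplasts and 136 (8.55%) higher in intact tips, the latter near its background. Without epidermis replicate 3 the 461 genes were 301, or 21.9% of a shorter list, and without epidermis replicate 2 the 69 were 37 and the 94 were 56. Without root cap replicate 1 the 136 genes were 216, and without epidermis replicates 2 and 3 they were 89 and 90. Leaving out all genes called between protoplasts and intact tips left 2724 of the 3484 calls, 1339 higher in root cap and 1385 higher in epidermis. Lone zeros beside values of 30 to 100 were more frequent in protoplasts (13.4%) than in intact tips (1.17%), and their part in these calls was not tested.

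Zm00001d031771 is an example of a gene higher in root cap and in protoplasts, chosen after the values were seen. It was at 2759, 4407 and 3524 in root cap and at 0, 13.1 and 5.11 in epidermis. Protoplasts held 33.7, 36.6 and 51.2, and all intact tip libraries were at 0. Its level in protoplasts was thus far below that in root cap, and every protoplast library lay above every epidermis and intact tip library. Zm00001d026205, chosen in the same way, was at 4383, 12017 and 4821 in root cap and at 4.59, 13.1 and 19.4 in epidermis. It was 2.45 log2 units higher in protoplasts than in intact tips (SE 0.82, limma adjusted p = 0.0427) and 9.08 higher in root cap than in epidermis (SE 0.82, limma adjusted p = 2.16e-07).

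Cortex and stele, both dye-sorted, gave a second comparison without root cap or epidermis libraries. Of the genes higher in epidermis than in root cap, 158 (9.94%) were called higher in cortex than in stele, against 2.25% of all genes tested, and 29 (1.82%) were called higher in stele. In the root cap list, 165 (8.71%) were called higher in stele, against 2.27%, and 25 (1.32%) higher in cortex. All calls are 4.52% of genes for cortex against stele, and each gene's spread was estimated over all groups, root cap and epidermis included. The number of calls depended on single libraries: leaving out replicate 1 of cortex, 1 of stele or 2 of stele gave 72, 61 and 82 in place of 158, and 82, 61 and 54 in place of 165. Without cortex replicate 2 the 165 genes were 90. In each of these fits both shares stayed above the share of all genes tested. The smaller counts of 29 and 25 moved more: without stele replicate 2 they were 8 and 11, without stele replicate 1 they were 9 and 12, and without cortex replicate 1 they were 18 and 12. The 29 were 18 or 19 without stele replicate 3, epidermis replicate 3 or root cap replicate 2 or 3, and the 25 were 15 without epidermis replicate 2.

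The reporter lines gave another such comparison, added after the data were seen. Their spread entered each gene's variance in the direct comparison too, so the lists were not chosen independently of these lines. For genes higher in epidermis, 804 (50.6%) were called higher in endodermis than in quiescent center, against 23.2% of all genes tested. For genes higher in root cap, 409 (21.6%) were called higher in quiescent center, against 13.8%, and 387 (20.4%) higher in endodermis. With the groups compared fitted alone the 804 genes were 560 (34.3%), against 13.6%, and the 409 were 300 (13.5%), against 9.82%. With weights per group the 409 genes were 259 (10.98%), against 7.00%. The share higher in endodermis lay near the 23.2% of all genes, and the count was 248 without root cap replicate 2. Lone zeros of the kind described made up 22.9% of cases in the quiescent center and 0.453% in endodermis, and their part in these calls was not tested.

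**Figure D4:**
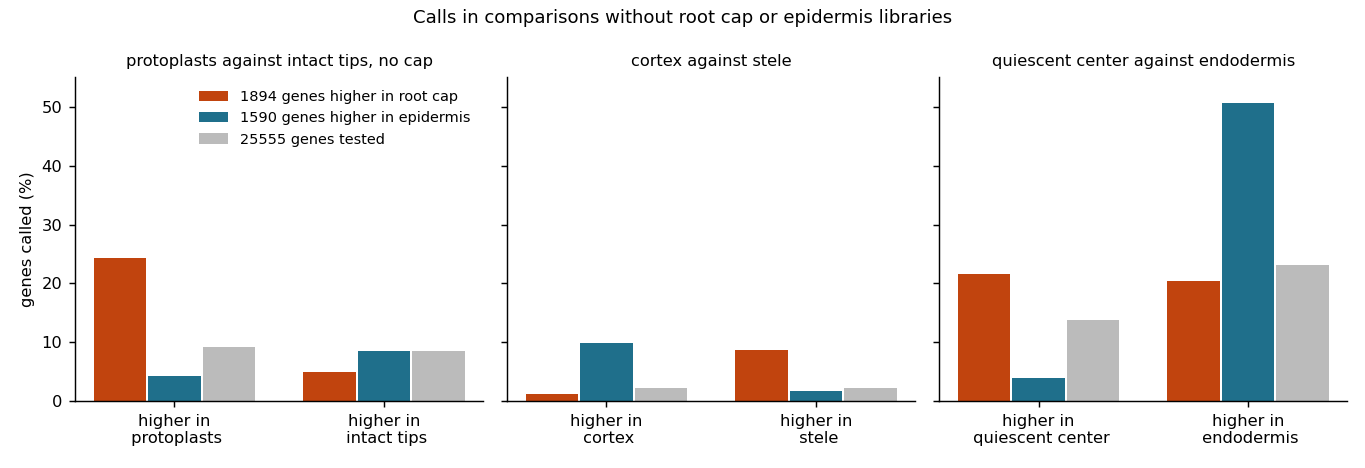
Share of genes called (percent, vertical axis) in 3 comparisons that use no root cap or epidermis library, for the 1894 genes higher in root cap, the 1590 genes higher in epidermis and all 25555 genes tested. Genes higher in root cap are called higher in protoplasts in 24.3% of cases against 9.27% of all genes, and genes higher in epidermis are called higher in endodermis than in quiescent center in 50.6% against 23.2%.

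Each tissue was next taken relative to the capless tip nearest to it in handling, as root cap minus intact tips without cap and epidermis minus unsorted protoplasts. These differences were unequal for 5504 genes, 21.5% of those tested. Of these, 3006 (11.8%) favoured root cap and 2498 (9.77%) favoured epidermis, an order that turned under TMM factors (2814 against 3109), weights per group (3319 against 3494) and, narrowly, quantile normalization (3078 against 3083). The median over all genes tested was −0.27 on the log2 scale. A value from this comparison also holds the difference between protoplasts and intact tips, whose mixes of cells may differ. It further holds the staining and sorting of epidermis, which the unsorted protoplasts did not share, so handling was only partly matched. Cap removal is stated for the protoplasts and not for epidermis.

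Zm00001d033389 had the largest value in favour of root cap here. It was at 8879, 47776 and 51230 in root cap and at 646, 910 and 119 in epidermis. Unsorted protoplasts held 2282, 2018 and 1962, while intact tips held 0, 0 and 1.72, under the floor of 3 reads, so that the sizes given against them depend on the added constant. The relative difference was 16.62 log2 units (SE 1.53, limma adjusted p = 2.98e-07), of which the direct difference between root cap and epidermis made up 6.08 (SE 1.08, limma adjusted p = 0.000553). The remainder was the difference between protoplasts and intact tips, 10.54 log2 units (SE 1.08, limma adjusted p = 1.48e-06).

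Zm00001d044078 differed less between protoplasts and intact tips, by 6.58 log2 units (SE 1.30, limma adjusted p = 0.00139). It was at 5496, 18652 and 16407 in root cap and at 18.4, 53.6 and 10.2 in epidermis, with a direct difference of 9.03 log2 units (SE 1.30, limma adjusted p = 6.54e-05). Its relative difference was 15.61 (SE 1.84, limma adjusted p = 5.72e-06). On the epidermis side the rule named Zm00001d006933 and Zm00001d007700 again, whose relative differences fell by 16.30 (SE 1.35, limma adjusted p = 8.99e-08) and fell by 15.11 (SE 1.02, limma adjusted p = 8.00e-09). For neither gene was a difference between protoplasts and intact tips called, at −0.91 (SE 0.96, limma adjusted p = 0.565) and −0.45 (SE 0.72, limma adjusted p = 0.725).

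Genes high in both soil-facing tissues were taken as those called higher in root cap than in intact tips without cap and called higher in epidermis than in the mean of cortex and stele. Each comparison used groups prepared alike, and they share no library. There were 198 such genes, which made up 4.22% of the 4693 genes higher in root cap than in intact tips and 24.5% of the 808 genes higher in epidermis than in cortex and stele. Those lists were 18.4% and 3.16% of all genes tested, and calls in either direction were 32.6% and 8.94%. The 24.5% stands against a background of 18.4%. Another 41 genes (5.07%) of the epidermis list were called lower in root cap, against 14.2% of all genes tested. The number of genes high in both depended on each epidermis library, at 87, 110 and 116 without epidermis replicates 1, 2 and 3, and the epidermis comparison as a whole fell from 2285 calls to 971 and 1217 without replicates 1 and 3.

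The median log2(value + 1) of the 198 genes was 10.35 to 10.56 in the root cap libraries and 10.07 to 10.12 in the epidermis libraries. Of these genes 79 were at 1000 or more in all 6 libraries, and a mean under 10 was found for 4 in epidermis and 0 in root cap. In the direct comparison 26 were called higher in root cap and 14 higher in epidermis, against 7.41% and 6.22% of all genes tested, and 158 were not called. This does not show equal levels: the 95% interval of the difference lay within 1 log2 unit of 0 for 13 genes, and the median distance from the estimate to either end was 1.39. Each gene's spread was estimated over all 8 groups, so these calls and intervals also carry the spread of groups outside the comparison. Cortex was the next highest group by median (8.64 to 8.85), and endodermis the lowest (4.89 to 5.98). Quiescent center, at 7.64 to 8.32, was above endodermis, and 91 of the 198 genes (46.0%) were called higher there, against 13.8% of all genes tested. That count was 41, 52 and 53 without epidermis replicates 1, 2 and 3, or 47.1%, 47.3% and 45.7% of the shorter lists. With the groups compared fitted alone the share was 20.8% of 476 genes, against 9.82% of all genes, and with weights per group 21.96% of 460, against 7.00%.

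**Figure D5:**
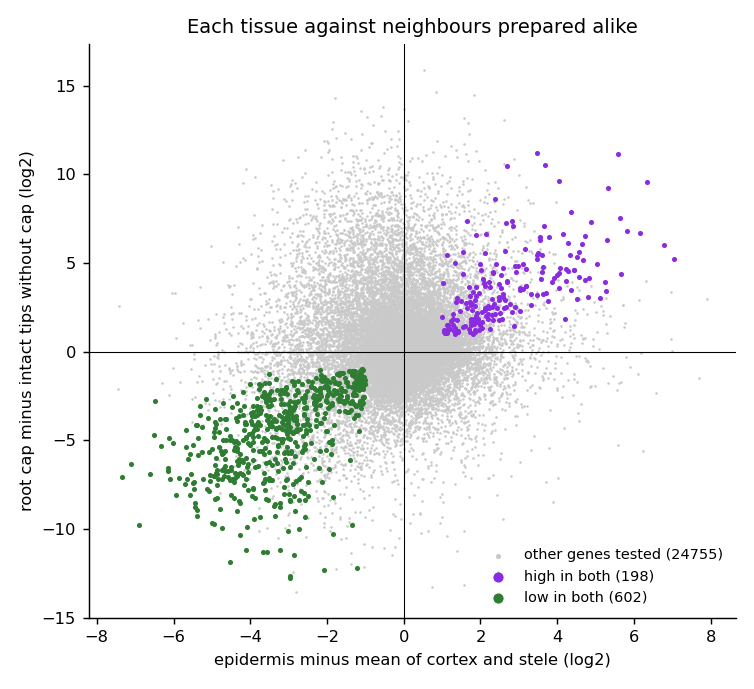
log2 difference of epidermis from the mean of cortex and stele (horizontal axis) and of root cap from intact tips without cap (vertical axis) for the 25555 genes tested. The 198 genes high in both lie at upper right and the 602 genes low in both at lower left, and the comparisons share no library.

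Zm00001d011886 led the genes high in both by the smaller of its differences. It was at 4702, 21056 and 12346 in root cap and at 2702, 2730 and 1700 in epidermis, so every root cap library lay above every epidermis library. The direct difference of 2.20 log2 units was not called (SE 1.68, limma adjusted p = 0.455, 95% interval −1.31 to 5.72). Means in the other groups were 108 ± 85.9 in cortex, 50.4 ± 70.8 in intact tips and 14.2 ± 16.5 in stele (SD, n = 3).

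Zm00001d004725 was at 14427, 17678 and 9040 in root cap and at 28693, 22119 and 22562 in epidermis. Epidermis was the higher tissue here, with no overlap, but the difference of −0.88 log2 units was not called (SE 0.69, limma adjusted p = 0.474, 95% interval −2.33 to 0.57). That SE also takes in the spread within the other groups. Cortex held 1328 ± 260 and stele 92.0 ± 37.4 (SD, n = 3), and the endodermis libraries held 0.709, 0 and 0. Quiescent center replicate 3, at 1520, stood above replicates 1 and 2, at 109 and 122.

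The opposite pattern was more frequent. Called lower in root cap than in intact tips and lower in epidermis than in cortex and stele were 602 genes, 16.6% of the 3628 genes of the root cap list and 40.8% of the 1477 genes of the epidermis list. Among all genes tested 14.2% were called lower in root cap and 5.78% lower in epidermis. Called higher in root cap were 237 (16.05%) of the epidermis list, against 18.4% of all genes tested. Without epidermis replicate 1 the 602 genes were 287.

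The genes low in both were high in stele, whose levels helped choose them, and in endodermis, whose levels did not. Their median log2(value + 1) was 3.18 to 4.67 in root cap and 3.97 to 5.26 in epidermis, 9.02 to 9.13 in stele and 9.22 to 9.41 in endodermis. Cortex lay between and its libraries were apart, at 6.22, 6.68 and 8.13. Quiescent center, at 6.74 to 6.87, was below its own medians over all genes tested, 7.66 to 7.83. The levels of the reporter lines chose none of these genes, but their spread entered each gene's variance and so the calls. Without the quiescent center in the fit, 853 genes were low in both. In the comparison of the reporter lines 384 (63.8%) were called higher in endodermis than in quiescent center, against 23.2% of all genes tested. Without epidermis replicate 1 that count was 183, or 63.8% of the shorter list. With the groups compared fitted alone the share was 47.3% of 780 genes, against 13.6% of all genes. Low is a relative term here: 140 of the 602 genes were at 100 or more in all 6 root cap and epidermis libraries, and 22 at 1000 or more. In the direct comparison 112 were called higher in epidermis and 41 higher in root cap, against 6.22% and 7.41% of all genes tested.

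Zm00001d023344 was listed at 0 throughout root cap and stood at 0, 3.03 and 4.08 in epidermis. Stele held 639, 855 and 818, and intact tips held 1431, 536 and 938. In cortex the values were 20.2, 100.04 and 1261, with the third library far above the others. Zm00001d035689 showed the same spread in cortex, at 0, 7.00 and 1615, while stele held 7808, 6216 and 5214. It was at 24.4, 0 and 32.1 in root cap and at 10.1, 1.01 and 0 in epidermis, so root cap and epidermis overlapped.

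Abundance by reads gave a different view of what the tissues share, one that also depends on transcript length. In each of the 6 libraries 1976 genes made up the top 5% of identifiers by value, and 953 genes, 2.41% of all identifiers, were in the top 5% of all 6. The 953 genes took 38.1% ± 0.332 of the normalized total in root cap and 45.1% ± 1.02 in epidermis (SD, n = 3), in libraries that also chose them. Of these, 408 (42.8%) were in the top 5% of all 24 libraries, 834 were in the top 5% of every unsorted protoplast library and 619 in that of every quiescent center library. In the direct comparison 34 were called higher in root cap and 122 higher in epidermis, against 7.41% and 6.22% of all genes tested. By contrast 264 genes were in the top 5% of all root cap and no epidermis library, and 270 the other way round.

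Zm00001d015327 had the highest lowest value of the abundant genes. It was at 129966, 157410 and 141308 in root cap and at 143781, 147827 and 127314 in epidermis, overlapping ranges with a difference of 0.03 log2 units (SE 0.24, limma adjusted p = 0.968, 95% interval −0.48 to 0.54). Intact tips without cap held less, at 28654, 31017 and 32623, and so did quiescent center, at 25670, 42747 and 36320. Zm00001d023994 was at 154186, 91197 and 145351 in root cap and at 234166, 383236 and 278693 in epidermis, where all libraries were higher, but the difference of −1.20 was not called (SE 0.59, limma adjusted p = 0.198).

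Only 9 genes were in the top 5% of all root cap and epidermis libraries and of no library of any other group, and 7 of them were among the 198 genes high in both. Both choices use the same values, so this overlap is largely built in. Zm00001d004725, described above, and Zm00001d004728 had the highest lowest values of the 9, both chosen after the data were seen. Zm00001d004728 was at 6944, 10059 and 6198 in root cap and at 10967, 11583 and 9136 in epidermis, and no library of another group exceeded 970, the value in cortex replicate 1. The ranges of the tissues overlapped, and the difference was −0.47 log2 units (SE 1.05, limma adjusted p = 0.845, 95% interval −2.67 to 1.72). Quiescent center held 401, 6.83 and 902, and its spread also enters this SE.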

How the data were processed

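For the 24 libraries the authors deposited one table of 39510 identifiers, whose unit is a signal: counts per gene scaled by one size factor for each library. Tools named by the submitters' processing notes are Trimmomatic, DESeq2 and kallisto 0.43. The build is not given in the sources used here. Group averages (8 columns) were left out. In every library 100.0% of values above 0 lay within 0.01 of a whole multiple of the value of 1 read (0.604 to 1.49), a weak test in the 3 libraries where that value lay within 0.01 of 1. Read numbers were recovered from these steps, and ranged from 21978670 to 50289026 per library. kallisto estimates counts, so genes with near-identical copies carry uncertain values. The floor behind a value of 0 was 3 reads, or 2.75 to 4.46 units in the root cap and epidermis libraries, and takes in counting error alone, as reads copied by amplification are not separate molecules.

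Genes at 10 or more in at least 3 libraries were tested (25555). limma 3.58.1 in R 4.3.3 was fitted to log2(value + 1) with a mean for each of 8 groups and a trended prior variance, with Benjamini-Hochberg adjustment. Fold changes on this scale understate the change of low genes. edgeR 4.0.16 and DESeq2 1.42.0 on recovered reads were alternatives, and the fits were tested on simulated data, where limma called more unchanged genes than its threshold implies and edgeR called none. Groups and replicate numbers came from the sample titles, also where the description of a library titled 3 says 2. No pair of root cap or epidermis libraries held the same reads.

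Members, comparisons and lists were chosen with earlier results of these data known. The fixed lists of gene symbols could not be used, since no identifier matched a name. Named genes are the 2 with the largest difference per direction among those called, if the higher group averaged at least 100 and libraries did not overlap. For genes high in both the order was by the smaller difference, with 100 or more in all 6 libraries, and for genes low in both with means of at least 100 in intact tips, cortex and stele.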

Additional observations from a re-analysis of the deposited data

How the results depend on the processing

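The comparison of root cap with epidermis stayed within 1.5 times its 3484 calls under each alternative run, from 2594 to 3873 with single libraries left out, 2842 with edgeR, 4162 with DESeq2 and 4746 without the quiescent center. The replicate block gave 3394 calls for it and moved no other count of genes by over 1.5 times. Deviations of same-numbered root cap and epidermis libraries had correlations of −0.103, 0.035 and −0.086, and those of differently numbered libraries ran from −0.062 to 0.132. With 3 libraries a group these values cannot settle whether same-numbered libraries share plants or a batch, and the labels do not say. The larger number of genes higher in root cap did not hold under TMM factors (1799 against 1885), quantile normalization (1948 against 2029) or edgeR (1400 against 1442), nor without root cap replicate 1 (1901 against 1972) or without the genes called between protoplasts and intact tips (1339 against 1385). Quantile normalization turned root cap against intact tips from 4693 higher and 3628 lower to 4104 and 5053, and moved its median from 0.06 to −0.24. It turned quiescent center against endodermis from 3518 higher and 5936 lower to 4786 and 4669. TMM factors moved the median of the relative comparison from −0.27 to −0.43. edgeR split epidermis against cortex and stele into 841 higher and 1006 lower, beside 808 and 1477, and cortex against stele into 412 and 214, beside 574 and 581.

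Of 192 recomputed counts of genes 164 stayed within 1.5 times the reported count. Those that did not were, with weights per group, 4870 (epidermis against cortex and stele), 2213 (cortex against stele), 5476 (quiescent center against endodermis, beside 9454), 460 (high in both) and 1072 (low in both). With the groups compared fitted alone they were 4760 (epidermis against cortex and stele), 5997 (quiescent center against endodermis) and 476 (high in both), and without the quiescent center 2085 (cortex against stele) and 376 (high in both). A pseudocount of 10 gave 1852 (cortex against stele) and 336 (high in both), edgeR gave 626 (cortex against stele) and DESeq2 gave 310 (high in both). Genes high in both numbered 500 with epidermis against the 4 other sorted tissues and 550 with epidermis against unsorted protoplasts, of which 174 and 152 were among the 198. The top 1% gave 132 and the top 10% gave 2170 abundant genes. With single libraries left out the counts were 971 to 2431 (epidermis against cortex and stele), 2952 to 4085 (protoplasts), 414 to 1224 (cortex against stele), 87 to 209 (high in both) and 287 to 629 (low in both). Of the genes higher in root cap, 19.0% to 28.3% were called higher in protoplasts over these alternatives. Of 313 recomputed values for named genes 312 kept direction and side of the threshold, and Zm00001d023994 was called at −1.20 without the quiescent center (limma adjusted p = 0.0233). The cause was not tested. Arms left with 2 libraries were assumed to vary like the other groups.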
